A study of Homo sapiens with 42 samples.

Results

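The comparison described here set HAP1 cells labelled neil1 against HAP1 cells labelled wt (wild type), both kept in media without drug for the 48 h of the experiment. Its members were the 6 media libraries that carry these labels and have no letter at the end of their name, out of 42 libraries in the series: neil1 rep12, rep13.1 and rep13.2, and wt 1.1, 1.3 and p1. HAP1 is an adherent, near-haploid human line derived from the chronic myeloid leukaemia line KBM-7, in which most genes can be disrupted by editing 1 copy. The copy number of NEIL1 in these cells was not measured. The series also holds 4 media wt libraries whose names end in A or B, and for each media library a partner given 200 µM buthionine sulfoximine (BSO), an inhibitor of glutathione synthesis; both kinds are used here only beside the main values. The names of the neil1 libraries point to 2 lines, line 12 with 1 library and line 13 with 2. The series text calls the panel deficient for the NEIL glycosylases. The labels of neil1 give the genotype, these names and the word biological, but neither the edit nor the origin of a line, so the lines are read from the names alone. Nothing in the labels says that the wt libraries came from separate cultures, so p-values measure the spread between libraries only. In the main fit that spread was estimated within the groups of all 42 libraries, not from the 6 compared alone.

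NEIL1 is a DNA glycosylase: it finds oxidized bases, cuts them from the sugar and nicks the strand beside them, which starts base excision repair. Its relatives NEIL2 and NEIL3 remove overlapping sets of lesions in other settings, and downstream enzymes (APEX1, POLB, XRCC1, PARP1) clean the nick, fill the gap and recruit the ligase.

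Values are normalized reads, and a difference is the log2 difference between groups on the log2(value + 1) scale, ± its standard error, which understates the change of genes with few reads. Tests are limma's over 14331 genes, with Benjamini-Hochberg adjusted p under 0.05 as the threshold, and wt means the unlettered wt libraries unless stated.

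NEIL1 itself (chr15:75347039-75357115) did not pass. It had 284 normalized reads in line 12, 361 and 513 in line 13, and 310, 403 and 353 in wt, so that the groups overlapped (0.09 ± 0.18, adjusted p = 0.88), and the sign turned without rep13.2 (-0.14) or wt 1.1 (-0.01) and with 1 mean per line (-0.01). Line 12 held the lowest of the 6 values and neil1 rep13.2 the highest, and the difference between the lines missed the threshold too (-0.60 ± 0.23, adjusted p = 0.199). The 4 lettered wt libraries lay higher, between 774 and 975. Since the edit is not described, the RNA level does not check the label. NEIL2 had 606, 491 and 495 in neil1 against 487, 613 and 561 in wt (-0.06 ± 0.09, adjusted p = 0.833). NEIL3 had 749, 755 and 777 against 749, 729 and 708 (0.06 ± 0.11, adjusted p = 0.864).

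The 6 libraries were alike in depth (30.1 M to 30.4 M reads on named genes) and in genes detected (18001 to 18451), and mitochondrially encoded genes took 1.70% to 2.62% of reads. Neither group was uniform. As the root mean square log2 difference over genes, wt 1.1 and 1.3 lay 0.286 apart and wt p1 0.302 to 0.336 from them. The libraries of line 13 lay 0.298 apart, but line 12 lay 0.516 to 0.546 from line 13 and 0.494 to 0.527 from wt, farther than line 13 from wt (0.377 to 0.424). Counting error did not account for the distance of any pair (chi-square per degree of freedom of 5.21 for wt 1.1 with 1.3, 11 within line 13 and at most 13.9 for p1 with another wt library). All 6 defining markers of HAP1 (BCR, ABL1, VIM, CDH2, LIN28B, KIT) were present in every library, with summed levels of 22760 to 33520 in neil1 and 24380 to 26140 in wt.

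Against wt, 25 genes were higher and 18 lower in neil1. These 43 genes were 0.300% of those tested (0.174% higher, 0.126% lower), and 9 of the higher and 13 of the lower ones differed by 2-fold or more. At an unadjusted p under 0.05 there were 1748 genes. The higher genes had all 3 neil1 libraries above all 3 wt libraries in 25 of 25 cases (8.90% of all genes tested did), and the lower genes had them below in 16 of 18 (6.28% of all genes), which the calls rest on. Against all 7 wt libraries 17 of the 25 lay above (4.93% of all genes) and 15 of the 18 below (2.51%). All of the higher genes had already been above 3 of those 7 through the call, and of all 1275 genes above these 3 libraries, 706 lay above all 7, as did 360 of 900 below, so nothing is read from the counts. The count depended on single libraries: it was 12 without wt 1.1, 19 without wt 1.3 and 367 (213 higher, 154 lower) without wt p1, and between 29 and 38 without any 1 neil1 library.

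**Figure D1:**
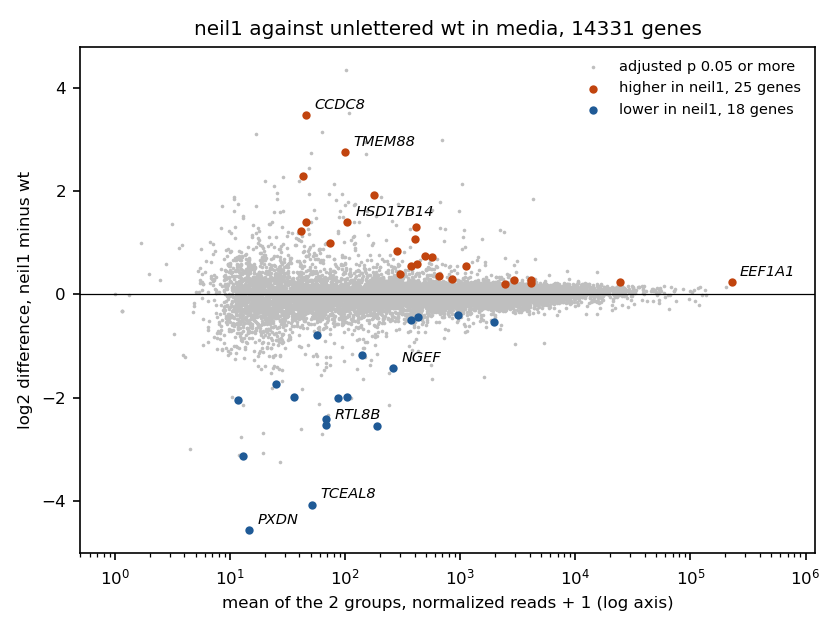
Difference between neil1 and wt in media for 14331 genes: the horizontal axis is the mean of both groups in normalized reads + 1 (log axis), the vertical axis the log2 difference, neil1 minus wt. The 25 genes called higher and the 18 called lower are coloured; the largest differences belong to genes with few reads, whereas EEF1A1, the most abundant of the 43, was called on a difference of 0.24.

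Of the 24 called genes that were recomputed under the alternatives, 4 kept their call in every one that tested them and without any 1 library: RTL8B, TCEAL8 (not tested with a mean of 50 or more), NGEF and HSD17B14. RTL8B (chrX:135020513-135022542), one of the Gag-like genes that descend from a retrotransposon, had 25.5 in line 12, 16.4 and 15.2 in line 13, and 89.2, 155 and 100.1 in wt. All 3 neil1 libraries lay far below the lowest wt library (-2.53 ± 0.35, adjusted p = 0.00038; line 12 alone -2.09 ± 0.46, adjusted p = 0.0104; line 13 alone -2.75 ± 0.37, adjusted p = 2.41e-05), and the lettered wt libraries held 109 to 275. Of the 50-base stretches of its transcript, 9.31% also occur in its relatives RTL8A and RTL8C, so a part of its reads may be shared with them. RTL8A had 2219, 1840 and 1795 in neil1 against 1255, 1396 and 1279 in wt (0.57 ± 1.02) and RTL8C 4250, 4214 and 4089 against 3954, 3834 and 4472, and neither passed.

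TCEAL8 (chrX:103252995-103255155), a small nuclear protein of the family related to transcription elongation factor A, had 8.15 in line 12, 1.93 and 5.69 in line 13, and 102, 71.5 and 113 in wt. No neil1 library came near the wt range (-4.07 ± 0.68, adjusted p = 0.0019), and the lettered wt libraries held 37.4 to 78.4. Line 12 alone gave -3.37 ± 0.92 (adjusted p = 0.0373) and line 13 alone -4.42 ± 0.72 (adjusted p = 0.000713). Of the 10 TCEAL and BEX genes of the X chromosome that were tested, TCEAL8 was the 1 that passed, and the median of the list was -0.12 against 0.02 over all genes.

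NGEF (chr2:232878701-233013256), ephexin-1, an exchange factor for small GTPases in neurons, had 174 in line 12, 109 and 145 in line 13, and 397, 381 and 357 in wt. The difference was -1.42 ± 0.21 (adjusted p = 0.000722), with -1.11 ± 0.29 (adjusted p = 0.0283) for line 12 and -1.58 ± 0.23 (adjusted p = 9.06e-05) for line 13. The lettered wt libraries, at 207 to 320, lay between the groups. HSD17B14 (chr19:48813018-48836491), a 17-beta-hydroxysteroid dehydrogenase, had 149.8 in line 12, 132 and 167 in line 13, and 47.0, 55.5 and 66.1 in wt. Its difference was nearly the same in both lines, 1.41 ± 0.33 in line 12 (adjusted p = 0.0147) and 1.40 ± 0.26 in line 13 (adjusted p = 0.00352), and 1.40 ± 0.23 for both (adjusted p = 0.00124). It was the 1 gene of 11 tested in its enzyme family to pass.

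The calls of STAP2 and BOLA3-AS1 also held without any 1 library, and were lost in 1 other fit, that on the 6 media libraries alone. STAP2 (chr19:4324043-4338827), an adaptor of tyrosine kinase signalling, had 63.2 in line 12, 55.9 and 50.3 in line 13, and 24.9, 28.2 and 18.5 in wt (1.22 ± 0.23, adjusted p = 0.00636), with 35.4 to 42.3 in the lettered wt libraries. BOLA3-AS1, an antisense RNA of the mitochondrial iron-sulfur gene BOLA3, had 277, 375 and 442 against 219.5, 208 and 177 (0.83 ± 0.14, adjusted p = 0.00306). The strand setting of the counting is not given in the sources used here, so reads of an antisense gene and its partner cannot be told apart.

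The DNA just upstream of 3 of these genes is shown as an example: TCEAL8 and RTL8B were low in every neil1 library and STAP2 high. Each is the 250 bases before the gene's start in RefSeq's GRCh38.p14 annotation, 5′ to 3′ on the gene's strand (minus for all 3). Capitals mark CG dinucleotides, the sites of DNA methylation in human cells.
TCEAL8, chrX:103255156-103255405: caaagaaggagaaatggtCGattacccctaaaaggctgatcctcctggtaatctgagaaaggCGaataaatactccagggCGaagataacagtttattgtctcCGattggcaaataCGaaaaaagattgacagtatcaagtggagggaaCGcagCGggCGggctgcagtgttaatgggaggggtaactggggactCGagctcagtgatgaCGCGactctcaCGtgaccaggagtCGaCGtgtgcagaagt
RTL8B, chrX:135022543-135022792: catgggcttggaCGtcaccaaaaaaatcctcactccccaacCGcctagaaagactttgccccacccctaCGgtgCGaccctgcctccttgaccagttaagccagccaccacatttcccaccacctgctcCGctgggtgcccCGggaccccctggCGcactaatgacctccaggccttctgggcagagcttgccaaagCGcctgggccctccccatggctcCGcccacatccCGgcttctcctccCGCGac
STAP2, chr19:4338828-4339077: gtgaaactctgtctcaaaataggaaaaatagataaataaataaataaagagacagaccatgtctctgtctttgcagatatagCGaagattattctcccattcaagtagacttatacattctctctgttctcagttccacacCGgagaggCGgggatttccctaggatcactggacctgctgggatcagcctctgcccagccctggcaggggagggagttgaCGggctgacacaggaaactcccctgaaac
The TCEAL8 window holds 14 CG, and 69.8% of 16052 such windows of 10955 tested genes hold as many or more. The RTL8B window holds 12 (74.6%) and that of STAP2 4 (90.7%). NGEF, not shown but also low in every neil1 library, has a window with 43 (1.61%) and another with 8 (82.1%). The median over all these windows was 20 (quartiles 11 and 28), and over the 45 windows of the 33 called genes with an entry it was 23. No methylation was measured in these libraries.

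The genes with the highest rises were highest in line 12. CCDC8 (chr19:46410329-46413564), a partner of CUL7 and OBSL1 in the 3M complex, had 209 in line 12, 30.8 and 17.1 in line 13, and 3.83, 8.47 and 0.972 in wt (3.46 ± 0.79, adjusted p = 0.0404). TMEM88 (chr17:7855066-7856099), a membrane protein that binds Dishevelled in the Wnt pathway, had 429 in line 12, 63.6 and 53.1 in line 13, and 20.1, 14.1 and 14.6 in wt (2.75 ± 0.60, adjusted p = 0.0291). KCTD11 (chr17:7352162-7354944), a cullin-3 adaptor that restrains Hedgehog signalling, had 142, 32.8 and 42.7 against 10.5, 16.9 and 7.78 (2.29 ± 0.52, adjusted p = 0.0387). In all of these genes line 13 lay above the 3 wt libraries and well under line 12. For KCTD11 the lettered wt libraries (11.8 to 42.5) reached the level of line 13. Line 13 alone passed for TMEM88 (1.79 ± 0.39, adjusted p = 0.0198) and not for CCDC8 (2.42 ± 0.67, adjusted p = 0.12) or KCTD11 (1.65 ± 0.49, adjusted p = 0.154). The calls of these 3 genes were lost without rep12 and without wt 1.1, and also without rep13.1 or p1 (CCDC8), wt 1.3 (TMEM88, KCTD11) or rep13.2 (KCTD11), with adjusted p up to 0.261, 0.228 and 0.24.

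Other rises were larger in line 13 or alike in both lines. CABYR (chr18:24139062-24161600), a calcium-binding protein of the sperm fibrous sheath, had 133 in line 12, 346 and 371 in line 13, and 57.5, 88.5 and 59.3 in wt (1.92 ± 0.35, adjusted p = 0.00522). Line 13 alone passed (2.40 ± 0.29, adjusted p = 5.27e-06), line 12 alone did not (0.97 ± 0.37, adjusted p = 0.144), and the difference between them missed the threshold (adjusted p = 0.0564). PCDHB5, a clustered protocadherin of the cell surface, had 379, 728 and 679 against 205, 269 and 225 (1.3 ± 0.29, adjusted p = 0.0387). HAGLR (chr2:176173189-176188958), a long non-coding RNA that runs antisense within the HOXD cluster, had 48.9, 67.5 and 77.8 against 29.7, 24.5 and 17.5 (1.41 ± 0.26, adjusted p = 0.00636). TMEM35A, a chaperone of nicotinic acetylcholine receptors, had 501.5, 558 and 577 against 251, 335 and 204 (1.07 ± 0.20, adjusted p = 0.00579). NME3, a nucleoside diphosphate kinase, had 605, 577 and 669 against 342, 390 and 378 (0.74 ± 0.13, adjusted p = 0.00443). RGS14, a regulator that speeds GTP hydrolysis by inhibitory G proteins, had 108, 89.6 and 95.9 against 42.2, 54.6 and 49.6 (0.99 ± 0.23, adjusted p = 0.0409), but overlapped the lettered wt libraries (57.8 to 100.2).

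Each of these calls needed particular libraries. That of CABYR was lost without rep13.2 or wt 1.1 (adjusted p up to 0.0565), HAGLR without rep13.2 (0.0564), and TMEM35A and NME3 without wt 1.1 (0.0534 and 0.0544). PCDHB5 was lost without rep13.1, rep13.2, wt 1.1 or wt 1.3 (up to 0.262), and RGS14 without any library except wt p1 (up to 0.272).

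Among the lower genes, DLC1, a GTPase-activating protein for RhoA, had 19.4 in line 12, 56.9 and 122 in line 13, and 362, 299 and 261 in wt (-2.54 ± 0.58, adjusted p = 0.0409). ARHGAP6, another such protein, had 67.3, 27.9 and 32.3 against 202, 158 and 126 (-1.99 ± 0.35, adjusted p = 0.00381). RHOU, a small GTPase, had 258, 303 and 369 against 439, 446 and 419 (-0.50 ± 0.12, adjusted p = 0.0424). STING1 (chr5:139475533-139482758), the adaptor that senses cyclic dinucleotides made by CGAS on cytosolic DNA, had 30.6, 43.4 and 28.5 against 115, 154 and 146 (-2.0 ± 0.44, adjusted p = 0.0317). It was lower in both lines (-2.13 and -1.94), but each line alone missed the threshold (adjusted p = 0.0579 and 0.0816), as did the comparison with 1 mean per line (0.0816). It was the 1 gene of 21 tested among the interferon-stimulated genes to pass, and the median of that list was -0.07.

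SLIT3, a secreted ligand of Robo receptors, had 12.2, 14.5 and 9.49 against 68.1, 21.6 and 83.6 in wt (-1.98 ± 0.40, adjusted p = 0.0136), where wt 1.3 lay well under the other wt libraries. HSPG2, which encodes the basement membrane proteoglycan perlecan, had 1569, 1862 and 1335 against 2475, 2571 and 1880 (-0.54 ± 0.12, adjusted p = 0.0243), and neil1 rep13.1 nearly reached wt p1. KLHL29, of the kelch-like family, had 64.2, 95.4 and 99.7 against 176, 197 and 209 (-1.18 ± 0.23, adjusted p = 0.0109). NPTN-IT1, an RNA from an intron of NPTN, had 41.8, 37.6 and 43.7 against 78.6, 69.7 and 66.1 (-0.79 ± 0.18, adjusted p = 0.0384). SFMBT2, a Polycomb-group protein, had 883, 767 and 830 against 1113, 1163 and 1009 (-0.40 ± 0.09, adjusted p = 0.0291).

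These falls also lost their call without some libraries. ARHGAP6 lost it without wt 1.1 (adjusted p = 0.0534), SLIT3 without rep13.2 or wt 1.1 (up to 0.176) and KLHL29 without rep12 or wt 1.3 (up to 0.103). Without wt 1.1 or 1.3 the calls of DLC1, STING1, HSPG2, RHOU, SFMBT2 and NPTN-IT1 were lost. So they were without rep12 and rep13.1 (DLC1 up to 0.262, RHOU up to 0.244), rep12 and rep13.2 (STING1 up to 0.157, HSPG2 up to 0.228), rep13.1 and rep13.2 (SFMBT2 up to 0.21), or any neil1 library (NPTN-IT1 up to 0.267). With the replicate name as a random block, RHOU (adjusted p = 0.0513) and NPTN-IT1 (0.0783) did not pass. DLC1 did not pass with edgeR. With 1 mean per line in place of the libraries, PCDHB5 (adjusted p = 0.166), RGS14 (0.0871), SFMBT2 (0.117) and NPTN-IT1 (0.0996) lost their call like STING1, and no other of the 24 did. With all wt libraries and a label-set term, CCDC8, RGS14, NPTN-IT1, HSPG2 and SFMBT2 lost their call. On the 6 media libraries alone, 6 of the 24 named genes passed: HSD17B14, NME3, TCEAL8, RTL8B, NGEF and STING1.

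**Figure D2:**
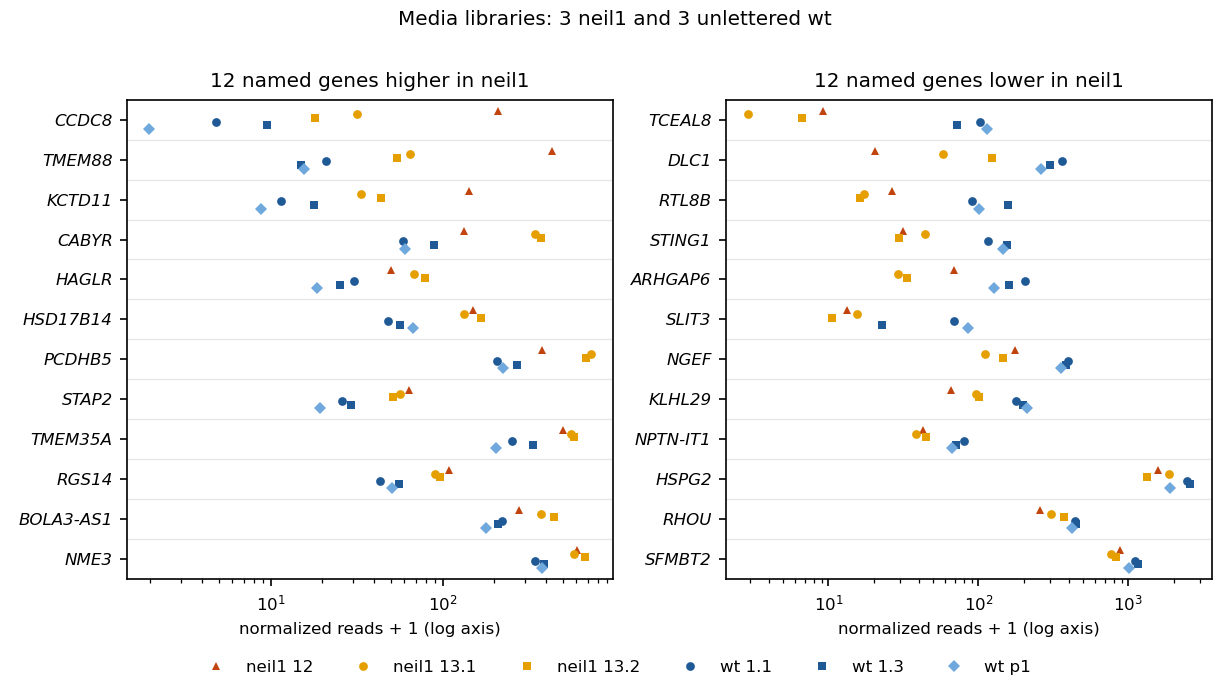
Normalized reads + 1 (log axis) of 12 named genes higher and 12 lower in neil1, in each of the 6 media libraries; triangles are line 12, orange points line 13 and blue points wt. The rows of CCDC8, TMEM88 and KCTD11 show line 12 far to the right of line 13, whereas in HSD17B14, STAP2 and RTL8B the neil1 libraries lie together.

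Others of the 43 genes, named here after their values were seen, were mostly small, even differences in well expressed genes. EEF1A1, the elongation factor that carries aminoacyl-tRNA to the ribosome, had 260820, 241500 and 239730 in neil1 against 210430, 207340 and 208920 in wt (0.24 ± 0.05, adjusted p = 0.0232). ODC1, the first enzyme of polyamine synthesis, rose by 0.23 and the replication factors GINS2 and GINS3 by 0.21 and 0.29. KCNG3, a modifier subunit of potassium channels, had 484, 504 and 520 against 333, 334 and 330 (0.60 ± 0.11, adjusted p = 0.00477). NUP85, PQBP1, AUP1, POFUT2, WWOX, SLC17A5 and SHROOM1 rose by 0.21 to 0.55. The lettered wt libraries lay above all neil1 libraries for SHROOM1 (483 to 535 against 396 to 465) and NUP85 (2916 to 3126 against 2492 to 2696). They overlapped neil1 for POFUT2, PQBP1 and AUP1, and also for VSTM4. For TOGARAM1 they lay above all neil1 libraries (462 to 512 against 319 to 443), while the unlettered wt p1 (438) lay under line 12 (443). TOGARAM1 fell by 0.44, and VSTM4 and CNKSR2, with under 50 reads in each library, fell by 2.04 and 1.74.

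PXDN, a peroxidase that crosslinks collagen IV, had 0 reads in all 3 neil1 libraries and 19.2, 50.8 and 11.7 in wt (adjusted p = 0.0469). Against a floor of 3 reads over the neil1 group, its wt mean was at least 27.9-fold higher. With BSO it was again at 0 in all 3 neil1 libraries, against 9.83, 47.6 and 7.92 in wt.

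Both called genes of the signal recognition particle RNA family were split within the 3 unlettered wt libraries. RN7SL1 had 9.17, 26.0 and 11.4 in neil1 against 187, 152 and 16.5 in wt (-2.40 ± 0.50, adjusted p = 0.016), where wt p1 lay within the neil1 range. RN7SL4P had 0, 2.89 and 0.949 against 37.4, 26.4 and 3.89 (-3.13 ± 0.64, adjusted p = 0.0141). The lettered wt libraries lay above all neil1 libraries for both, with 63.7 to 81.5 for RN7SL1 and 12.2 to 13.7 for RN7SL4P. With BSO, RN7SL1 had 10.3, 48.8 and 18.1 in neil1 and 6.88, 9.91 and 14.9 in wt. These RNAs carry no poly(A) tail and have many near-identical copies, so their reads are uncertain.

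Of the 32 gene lists examined, 6 held a gene that passed, 1 each: those of HSD17B14, TCEAL8, RTL8B, STING1, HAGLR and PCDHB5. In all, 6 of 519 tested list genes passed, beside 0.300% of all genes. The lists were chosen with earlier results of these data known, so no excess is read from these shares. Of the 26 base excision repair genes 0 passed, with a median difference of 0.06 against 0.02 over all genes, and 4 lay above all 3 wt libraries (8.90% of all genes did) and 1 below (6.28%). APEX1, the endonuclease that acts after most glycosylases, had 9395, 8786 and 8880 against 8430, 8190 and 8982 (0.08 ± 0.05, adjusted p = 0.493). OGG1, which removes 8-oxoguanine, had 473, 437 and 422 against 384, 416 and 481 (0.06 ± 0.08, adjusted p = 0.812), and NTHL1, which shares substrates with NEIL1, had 829, 789 and 880 against 759, 759 and 933 (0.03 ± 0.08, adjusted p = 0.905). UNG, MUTYH, POLB, XRCC1 and PARP1 also did not pass, with differences between -0.13 and 0.15. MBD4, a glycosylase of mismatched T and U, had 893, 924 and 914 against 833, 787 and 785 (0.18, adjusted p = 0.089). None of 35 genes of crosslink repair and recombination and none of 21 p53 targets passed.

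The series is titled for glutathione and resistance to cell death, so these genes were read one by one. Of 25 genes of glutathione synthesis and turnover 0 passed, nor did any of 14 glutathione transferases, 24 ferroptosis genes or 27 NRF2 targets. GCLC, the catalytic subunit of the enzyme that starts glutathione synthesis, had 1583, 2023 and 1798 against 1895, 1641 and 1843 in wt (0.00 ± 0.11, adjusted p = 0.995). GCLM, its modifier, had 1168, 1256 and 1182 against 1156, 1041 and 1148 (0.11 ± 0.10, adjusted p = 0.717). SLC7A11, the cystine importer, had 2746, 2130 and 2346 against 2357, 2893 and 1996, with the groups overlapping (0.00 ± 0.19, adjusted p = 0.995). GSS, GSR, HMOX1, TXNRD1 and SRXN1 differed by -0.01 to 0.10, and none passed.

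NQO1, a quinone reductase and one of the most regular NRF2 targets, came nearest. It had 3313, 3540 and 3549 in neil1 against 2177, 2406 and 2456 in wt, with no overlap (0.56 ± 0.14, adjusted p = 0.0655). It passed with the replicate name as a random block (adjusted p = 0.0184), on the 6 libraries alone (0.0244), without wt p1 (0.036) and with DESeq2 (0.0153). The lettered wt libraries, however, spanned 2416 to 3984 and so enclosed the neil1 values, and with BSO the difference was 0.22 (adjusted p = 0.628).

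Of 30 cell cycle genes 0 passed while 10 lay above all 3 wt libraries (8.90% of all genes did), with a median of 0.08. Of 24 cholesterol synthesis genes 0 passed, with 8 above and 3 below (8.90% and 6.28% of all genes). In the 13 mitochondrially encoded subunits of the respiratory chain the median was -0.16, and none passed. Of 37 ATF4 targets none passed, with a median of 0.11 against 0.02 over all genes. A difference above 0 was found for 36 of them (54.9% of all genes), for all 37 in line 12 alone (54.8%) and for 19 in line 13 alone (53.3%). This was not particular to ATF4 targets. Differences were above 0 for 15 of 16 heat shock proteins, and for all 16 in line 12 alone. So they were for 14 of 16 unfolded protein response genes and 23 of 27 NRF2 targets, but for 6 of 21 interferon-stimulated genes. The shares in line 12 were not recomputed under other scalings, which moved small differences there.

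Split by line, line 12 differed from wt at 440 genes (3.07% of those tested; 284 higher, 156 lower) and line 13 at 63 (0.440%; 38 higher, 25 lower). Line 12 has 1 library, which is assumed to vary like the other groups, and both comparisons use the same wt libraries. The split for line 12 turned with the scaling: it was 75 higher and 341 lower with libraries scaled to equal totals, and 160 and 175 with TMM factors, so no direction is given for small differences in line 12. Without wt p1 the counts were 962 for line 12 and 173 for line 13. The lines differed from each other at 232 genes (1.62%), 103 higher and 129 lower in line 12 (44 and 271 with equal totals, 79 and 147 with TMM). Over both treatments together, with 2 libraries against 4, that count was 1707 (11.9%). That fit used no block, so each media library and its BSO partner counted as independent. The count may therefore be too high.

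**Figure D3:**
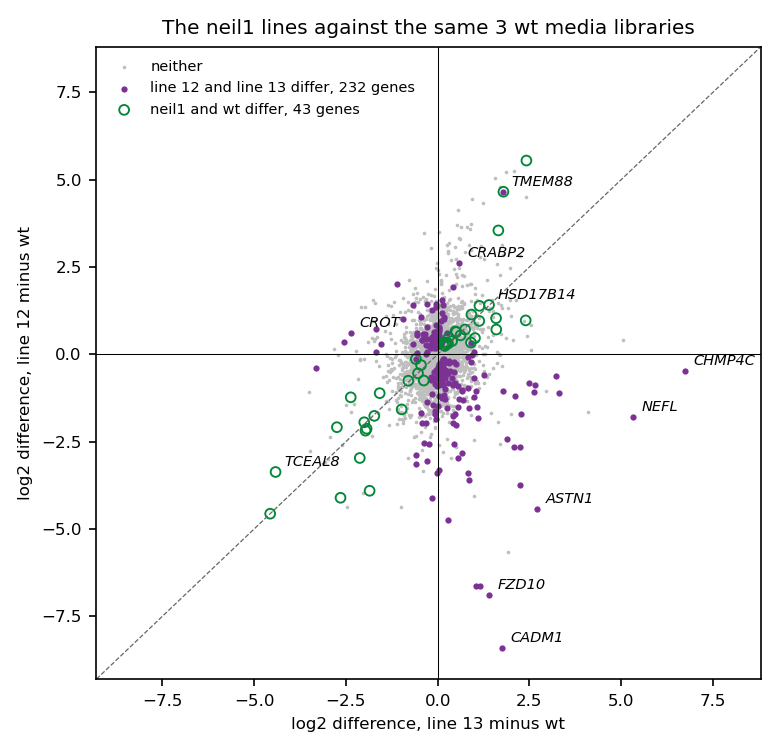
Log2 difference from the same 3 wt libraries for line 13 (horizontal axis) and line 12 (vertical axis) over 14331 genes; the shared wt libraries alone push points toward the dashed diagonal. Purple points are the 232 genes that differed between the lines, and green circles the 43 that differed between neil1 and wt; CADM1, FZD10 and CHMP4C lie far from the diagonal.

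Genes silent in line 12 and abundant in line 13 made the largest contrasts. CADM1, a cell adhesion molecule of the immunoglobulin superfamily, had 0 in line 12 against 1153.5 and 1152 in line 13 and 298, 503 and 265 in wt, at least 377-fold higher in line 13 than a floor of 3 reads (adjusted p = 0.0144). FZD10 (chr12:130162464-130165740), a Frizzled receptor for Wnt ligands, had 0 against 325 and 304, at least 103-fold, with 103, 122 and 133 in wt (adjusted p = 4.78e-08). Its head-to-head neighbour FZD10-AS1 (chr12:130151593-130161678) had 0 against 254 and 196, at least 73.7-fold, with 93.0, 93.2 and 113 in wt (adjusted p = 2.56e-06). In all of these genes wt lay between the lines. TAFA5, a secreted chemokine-like peptide of the nervous system, had 1.02 against 459 and 370, and 197, 160 and 250 in wt (-7.68 ± 1.15, adjusted p = 0.000123).

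A further set was near 0 in line 12 and low in wt, and high in line 13. CHMP4C, an ESCRT-III subunit of membrane scission and the abscission checkpoint, had 1.02 in line 12, 312 and 289 in line 13, and 0.959, 4.71 and 0.972 in wt, so line 13 stood apart from both (6.75 ± 0.66 against wt, adjusted p = 4.11e-08). NEFL, the neurofilament light chain, had 2.04, then 448 and 403, and 8.63, 13.18 and 7.78 in wt (line 13 against wt 5.33 ± 0.78, adjusted p = 0.000112). ASTN1, an adhesion protein of migrating neurons, had 0, then 162 and 124, and 22.05, 16 and 25.3 in wt, at least 46.8-fold higher in line 13 than line 12. NRXN3, a presynaptic neurexin, had 0, then 48.2 and 80.7, and 10.5, 22.6 and 7.78 in wt, at least 21.1-fold. By a rule chosen after the values were seen (at most 3 reads in line 12 and a mean of 50 or more in line 13), 12 of the 232 genes were of this kind, CCDC181, GRIA3, GUCY1A2 and DIO2 beside those above, and 0 were of the reverse kind. Tested genes needed a mean of 10 over all libraries, and line 12 adds fewer libraries to that mean than line 13. Genes read in line 12 alone were thus less likely to be tested, and nothing is read from the 0. Such genes were not counted over all genes tested.

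The promoter of TAFA5 is shown because the gene differed strongly between the lines and its start is rich in CG; this is the first of its 2 RefSeq windows, plus strand, GRCh38.p14, 5′ to 3′ with CG in capitals.
TAFA5, chr22:48489303-48489552: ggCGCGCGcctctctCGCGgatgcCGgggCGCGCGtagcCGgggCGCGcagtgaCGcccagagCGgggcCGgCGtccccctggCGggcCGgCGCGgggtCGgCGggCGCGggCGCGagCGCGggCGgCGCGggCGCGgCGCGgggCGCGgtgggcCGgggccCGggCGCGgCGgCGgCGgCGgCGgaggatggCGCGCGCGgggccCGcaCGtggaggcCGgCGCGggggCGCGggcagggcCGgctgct
It holds 58 CG, a number reached by 0.0187% of the windows of tested genes. The window was chosen for its CG, so its rank is no result about the lines. The second window holds 34 (11%). Among other genes named for the lines, the windows counted held from 3 CG (CHI3L2) to 25 (CROT). Its methylation was not measured here.

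Other genes were retained in line 12 and low in line 13. CROT, a peroxisomal carnitine acyltransferase, had 136 in line 12 and 20.2 and 13.3 in line 13, against 82.4, 96 and 86.5 in wt (line 12 minus line 13 2.97 ± 0.47, adjusted p = 0.000248; line 13 against wt -2.36 ± 0.35). GTSF1, a cofactor of the piRNA pathway, had 2679 against 281 and 446, with 1927, 2271 and 2099 in wt (2.91 ± 0.59, adjusted p = 0.00538). ZNF329, a zinc finger protein, had 235 against 33.7 and 55.0, with 143, 141 and 140.0 in wt (2.42 ± 0.41, adjusted p = 0.000725). DOC2B, a calcium sensor of vesicle fusion, had 80.5 against 5.78 and 16.1, with 103.5, 113 and 100.1 in wt (2.92, adjusted p = 0.00357). In these genes wt lay nearer line 12 than line 13, which differed from wt by -1.69 (ZNF329) to -3.30 (DOC2B). Line 12 was itself outside the wt range. It lay above wt for CROT, GTSF1 and ZNF329 (0.62, 0.35 and 0.73) and below for DOC2B (-0.38). These differences rest on 1 library of line 12 and did not pass, so no direction is read from them.

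CRABP2, which carries retinoic acid to its nuclear receptor, had 2230 in line 12 against 484 and 609 in line 13 and 330, 448 and 320 in wt (line 12 minus line 13 2.04 ± 0.39, adjusted p = 0.00323; line 12 against wt 2.62 ± 0.37). SYT11, a synaptotagmin, had 455 against 107 and 107, with 165, 206 and 148 in wt (2.08, adjusted p = 0.0387), and line 12 against wt missed the threshold (1.40, adjusted p = 0.119). CHI3L2, a chitinase-like lectin, had 188 against 40.5 and 56.0, with 102, 89.4 and 89.4 in wt (1.96, adjusted p = 0.0324), so that wt lay between the lines and neither line alone passed against it (adjusted p = 0.244 and 0.356). TMEM88 differed between the lines as well (2.86 ± 0.53, adjusted p = 0.00192).

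Of the 16 genes named for the lines, 10 kept their call in all fits tried. Without 1 of the line 13 libraries the call was lost for DOC2B and GTSF1 (without rep13.1, adjusted p = 0.0864 and 0.0715), NRXN3 (without rep13.2, 0.0869), and SYT11, CHI3L2 and CADM1 (without either, up to 0.146, 0.171 and 0.0821). The call was also lost with edgeR for CADM1 (0.121) and NRXN3 (0.0792), with no intensity trend for SYT11 (0.0524), and with the BSO libraries in place of media for SYT11 (0.0691), CHI3L2 (0.0794), CADM1 (0.0706) and NRXN3 (0.0532).

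**Figure D4:**
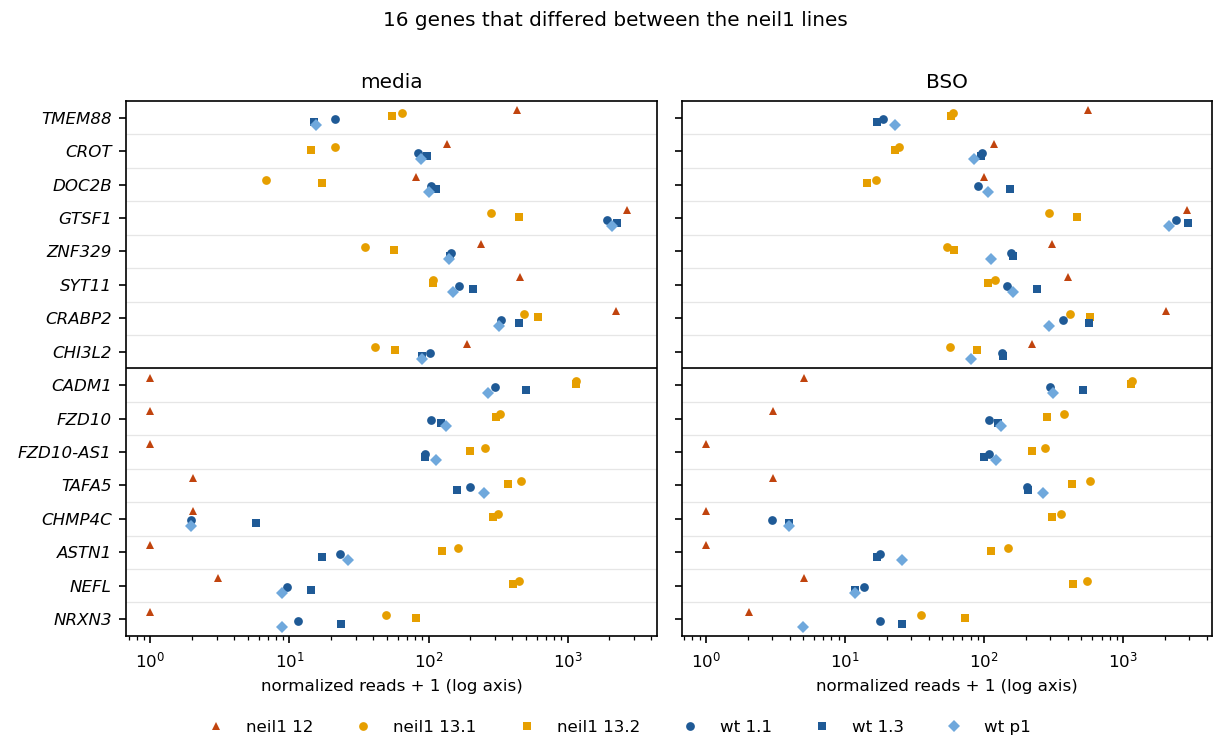
Normalized reads + 1 (log axis) of 16 genes that differed between the neil1 lines, in media and with BSO; triangles are line 12, orange points line 13, blue points wt. The 8 genes under the black line have line 12 at 2.04 reads or fewer in media and far to the left in both panels.

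The lists held some of the line differences. Among ATF4 targets the median difference from wt was 0.36 in line 12 and 0.00 in line 13, beside 0.02 and 0.01 over all genes. In line 12, 2 of 37 passed, ATF4 and SLC7A5 (3.07% of all genes did), and ATF4 did not pass with equal totals (adjusted p = 0.159) or TMM (0.0773). SLC7A5, the large neutral amino acid transporter, had 28415 in line 12, 18938 and 17672 in line 13, and 18711, 19569 and 20076 in wt (line 12 minus line 13 0.64, adjusted p = 0.0109). FTL, the ferritin light chain that stores iron, had 31874 in line 12 against 12501 and 11643 in line 13 and 11814, 12682 and 12717 in wt (line 12 against wt 1.36, adjusted p = 0.00886). GSTP1, a glutathione transferase, had 45326 against 28286 and 26779, with 28656, 27552 and 30598 in wt (line 12 against wt 0.65, adjusted p = 3.42e-05). GPX4, which reduces lipid peroxides with glutathione, had 6842 against 5175 and 5230, with 4813, 4752 and 5495 in wt (line 12 minus line 13 0.40, adjusted p = 0.0323, but 0.129 with equal totals and 0.0562 with TMM). TXNIP, which binds thioredoxin, had 297 against 498 and 476, with 476, 473 and 481 in wt (line 12 against wt -0.68, adjusted p = 0.00626). FTL, GSTP1, SLC7A5 and TXNIP held under all 3 scalings, as did 14 of the 23 list genes that passed for line 12.

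Some markers of other cell types moved with line 12 as well. COL1A1 had 2650 in line 12, 908 and 938 in line 13, and 627, 866 and 621 in wt (line 12 against wt 1.93, adjusted p = 3.58e-05). The summed fibroblast markers stood at 2748 in line 12, 931 and 982 in line 13 and 664 to 914 in wt. Nearly all of each sum was COL1A1, and COL1A2 was near 0. PDGFRB was higher in line 12 (46.9 against 4.79 to 7.78 in wt). COL3A1 (23.4 against 5.83 to 22.05) and THY1 (22.4 against 16.3 to 29.2) lay near or within wt. The epithelial sum was 9923 in line 12, 3464 and 4063 in line 13 and 2898 to 3551 in wt. Nearly all of that excess was KRT8 (6993 against 1311 and 1745), which did not pass, and CDH1 was near 0. The epithelial marker that passed between the lines, the splicing factor ESRP1, was lower in line 12, with 111 against 329 and 384 in line 13 and 182, 181 and 174 in wt (line 12 minus line 13 -1.67, adjusted p = 0.000339). EPCAM had 176 in line 12 and 136 and 258 in line 13. CD34 had 716, then 78.1 and 50.3, and 20.1, 22.6 and 19.4 in wt (line 12 against wt 5.05, adjusted p = 0.0214), with PTPRC, CD33, ITGAM and GATA1 near 0 and a blood sum of 1715 to 2286 in neil1 and 1198 to 1406 in wt. Most of the blood sum was TAL1, which did not pass (1526, 1599 and 1595 in neil1 against 1122, 1323 and 1132 in wt). The endothelial markers PECAM1, CDH5, KDR and TEK summed to at most 5.65 in all 6 libraries. The neural sum ranged from 27500 to 30380 in neil1 and 26930 to 29140 in wt. The part of other cell types in the results was not tested, and in bulk RNA more cells of a kind and more RNA per cell cannot be told apart.

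The same lines given BSO offered other libraries for the same differences, although a BSO library shares its line name with its media partner. With BSO, 29 genes differed between neil1 and wt (0.202%). Of the 43 genes called in media, 41 had the same direction with BSO and 13 passed there, while 58.5% of all genes had the same direction. The 2 exceptions were RN7SL1 and RN7SL4P. RTL8B had 39.0, 12.7 and 21.9 in neil1 against 73.7, 164 and 83.2 in wt (-2.12 ± 0.35, adjusted p = 0.00574). TCEAL8 had 13.3, 1.95 and 3.82 against 81.6, 46.6 and 80.2 (-3.54 ± 0.68, adjusted p = 0.0151). NGEF had 166, 106 and 134 against 379.5, 408 and 414 (-1.58 ± 0.21, adjusted p = 0.000166). HSD17B14 had 221, 166 and 276 against 86.5, 111 and 87.2 (1.19 ± 0.23, adjusted p = 0.0151), and STING1 49.2, 29.3 and 48.7 against 166, 174 and 172 (-2.02 ± 0.44, adjusted p = 0.0414).

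**Figure D5:**
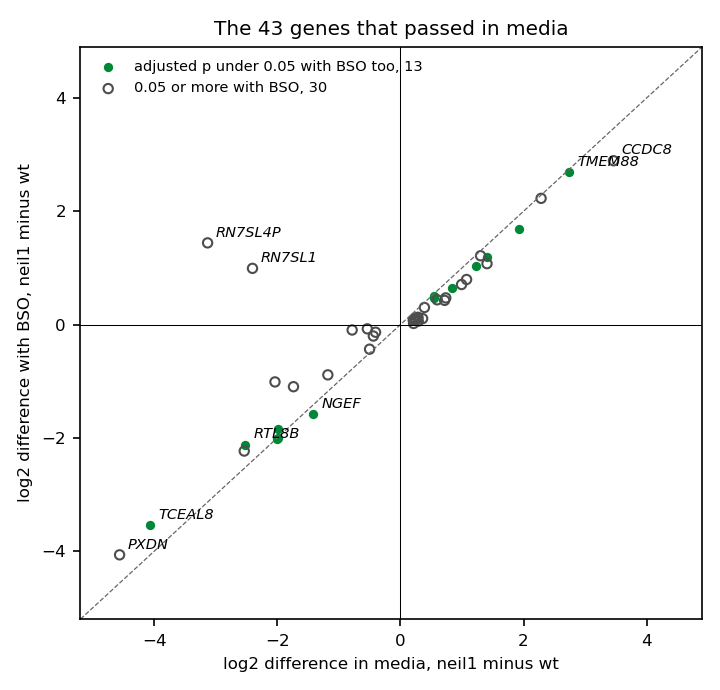
Log2 difference between neil1 and wt in media (horizontal axis) and with BSO (vertical axis) for the 43 genes called in media; filled points are the 13 that passed with BSO too. RN7SL1 and RN7SL4P lie below 0 in media and above 0 with BSO, and the other 41 genes have the same sign in both.

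Whether the neil1 difference itself changed with BSO was tested directly. No gene passed by limma (0%; lowest adjusted p = 0.183; 944 genes at an unadjusted p under 0.05). With the replicate name as a fixed block, which uses the pairs of media and BSO libraries, 317 genes passed, 112 with a higher and 205 with a lower difference in media, and without wt p1 and its partner 97 passed in the fit with no block. Of the 43 genes called in media, 3 passed with the block. RN7SL1 and RN7SL4P were those described above, and HSPG2 was lower in neil1 in media and not with BSO, where it had 1348, 1582 and 1226 against 1420, 1420 and 1517 (change of the difference -0.46 ± 0.10, adjusted p = 0.0156). The lines kept their differences: with BSO they differed at 275 genes (1.92%), and of the 232 genes of media 228 had the same direction and 125 passed, beside the same direction for 76.1% of all genes. With BSO, CADM1 had 4.10 in line 12 against 1164 and 1145 in line 13 (adjusted p = 0.0706), FZD10 2.05 against 372 and 283, and CHMP4C 0 against 357 and 305.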

How the data were processed

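RNA of HAP1 cells was measured by sequencing of total RNA, purified with a column kit and prepared with Illumina protocols, per the labels' protocols. The deposited table holds, for 42 libraries, the authors' signal: read counts per gene normalized by size factors. Per the submitters' processing notes the tools were Trim Galore, HISAT2, SAMtools, featureCounts and DESeq2, with GRCh38 (hg38); for versions, annotation and strand, nothing is stated in those notes. Of 30182 entries 20515 had a gene symbol; the others took 0.874% to 1.00% of reads in the 6 libraries compared and were left out. Dividing by the smallest step gave whole reads for 100% of values (relative tolerance 1e-06), used in edgeR and DESeq2 as alternatives.

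The main test was limma 3.58.1 (R 4.3.3) with an intensity trend on log2(value + 1) for 14331 genes with a mean of 10 or more, on all 42 libraries in 12 groups (wt split by the letter in its names), with a Benjamini-Hochberg threshold of 0.05. A second fit split neil1 by line. The fits were tested on simulated data. edgeR 4.0.16 and DESeq2 1.42.0 were alternatives, with other pseudocounts, filters, scalings, blocks and single libraries left out.

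No replicate name is shared by neil1 and wt. Names pair each media library with a BSO library: over 21 pairs the deviations from group means correlated with r = 0.193 to 0.849, and 21 of 21 correlated best with their own partner, so the names were taken to pair them. Named genes are NEIL1, NEIL2 and NEIL3, the genes past the threshold with the most positive (12) and most negative (12) differences among those averaging at least 50 in either group, without a locus identifier as symbol and without overlap between neil1 and wt, up to 4 list members past the threshold, a panel of repair and glutathione genes, and the 8 highest and 8 lowest between the lines. The members and the lists (32 lists, 566 genes in the table, 519 tested) were chosen with earlier results of these data known. Positions and promoters are RefSeq's (GRCh38.p14). A gene among those past the threshold is not reported here.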

Additional observations from a re-analysis of the deposited data

Results flagged for a closer look

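The neil1 lines went opposite ways, or by different amounts, at 17 of the named genes by the test of line 12 against line 13 (limma, adjusted p under 0.05). As log2 differences, line 12 minus line 13, these were 2.97 for CROT, 2.92 for DOC2B, 2.91 for GTSF1, 2.86 for TMEM88, 2.42 for ZNF329, 2.08 for SYT11, 2.04 for CRABP2, 1.96 for CHI3L2 and 0.40 for GPX4. On the other side they were -5.99 for NRXN3, -7.13 for NEFL, -7.16 for ASTN1, -7.22 for CHMP4C, -7.68 for TAFA5, -7.81 for FZD10-AS1, -8.30 for FZD10 and -10.17 for CADM1. The fitted values of genes with 0 reads in line 12 depend on the constant added before the logarithm.

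One group of libraries held a value far from the others. TMEM88 had 33.3 in the lettered wt library 1.1B, where the other 3 lettered wt libraries held 25.3 to 26.6. It was 1 of 60 groups examined, and chance sets apart about 1 in 20.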

How the results depend on the processing

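For neil1 versus wt in media the count of 43 genes became 18 on only the 6 media libraries, 135 with DESeq2, 50 with edgeR, 61 with the replicate name as a random block (correlation 0.526) and 50 with all wt libraries and a label-set term, and without single libraries 12 (wt 1.1), 19 (wt 1.3), 367 (wt p1) and 29 to 38 (neil1). Other filters, pseudocounts, scalings, 1 mean per line and no trend gave 35 to 45. For neil1 line 12 versus wt in media the count of 440 was 158 (wt 1.1), 176 (wt 1.3) and 962 (wt p1) without 1 library and 94 with the BSO libraries. For neil1 line 13 versus wt in media the count of 63 was 22 to 173 without 1 library, 119 with the BSO libraries and 125 with DESeq2. For neil1 line 12 versus line 13 in media the count of 232 was 75 to 96 without 1 library and 1707 over both treatments. For neil1 versus wt with BSO the count of 29 was 15 with a mean of 50 or more, 57 with the replicate name as a random block and without 1 library 2 (wt 1.1), 5 (wt p1) and 3 to 65 (neil1: 3, 5 and 65). For the neil1 difference in media minus with BSO the count of 0 was 317 with the replicate name as a fixed block and 97 without wt p1 (0 to 97 over the names left out). The cause of these moves was not tested, beyond fewer libraries where some were left out. The count over both treatments also took each media library and its BSO partner as independent. Of 1206 values recomputed, 1037 kept their direction and their side of the threshold or, for counts, stayed within 1.5 times. In 30 the log2 difference between neil1 and wt changed sign, all for 10 genes that did not pass in any of these fits. NEIL1 was -0.013 with 1 mean per line and -0.139 without rep13.2, -0.0082 without wt 1.1 and up to 0.285 without another library, and NEIL2 0.015 without wt 1.3 and down to -0.161. With libraries scaled to equal totals GCLC was -0.030, SLC7A11 -0.029, GSR -0.0082 and HMOX1 -0.0066. With TMM scaling GCLC was -0.014 and SLC7A11 -0.012, with edgeR -0.0078 and -0.023, and with DESeq2 -0.000457 and -0.014. GCLC was -0.043 with 1 mean per line. Without single libraries GCLC ranged from -0.085 (rep13.1) to 0.092, with -8.37e-05 without rep13.2 and -0.061 without wt 1.3, GSS from -0.021 to 0.026 (-0.012 without rep12, 0.018 without rep13.2), and SLC7A11 from -0.125 (wt p1) to 0.142 (-0.095 without rep12, -0.0054 without wt 1.1). HMOX1 ranged from -0.060 (wt 1.1) to 0.0997, SRXN1 from -0.093 to 0.115 (wt p1; 0.044 without rep13.2, -0.0073 without rep12), OGG1 from -0.013 (wt 1.1) to 0.149, and NTHL1 from -0.017 (wt 1.1 and 1.3; -0.0077 without rep13.2) to 0.132. The replicate name as a block changed the calls of NPTN-IT1, RHOU and NQO1 and no other named gene's in media. Calls of genes under about 10 reads are limited by depth. Alternatives with the BSO libraries were chosen after seeing the data.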

Other observations

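Parts of the long arm of chromosome 15, which carries NEIL1 (chr15:75347039-75357115), were lower in line 12. Along it, boundaries drawn after the values were seen gave median log2 differences from wt of 0.000659 over 144 genes between 20 and 45 Mb, -0.302 over 67 genes between 45 and 60 Mb, -0.113 over 225 genes between 60 and 90 Mb and -0.224 over 47 genes between 90 and 105 Mb. Between 45 and 60 Mb 88.1% of genes were lower in line 12, and beyond 90 Mb 85.1%. Line 12 with BSO gave -0.259, -0.107 and -0.211 in the last 3 stretches, and line 13 in media 0.00197, -0.00563 and -0.0267. Over the bins of 10 Mb with at least 20 genes on other chromosomes, line 12 ranged from -0.125 to 0.141. The bin of chromosome 15 that starts at 70 Mb, which holds NEIL1, lay within that range at -0.0882. With BSO the same bin was at -0.118, below the range of -0.08 to 0.153 on other chromosomes. No test was made of these medians, since neighbouring genes are not replicates.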
